A study of Mus musculus with 15 samples.

Results

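The comparison described here sets dermal adipocytes of mice at postnatal day 35 (P35) against dermal adipocytes of mice at postnatal day 21 (P21). Its members are the 6 libraries of these 2 ages, 3 per age, out of 15 libraries in the series, which also has 3 libraries each at P25, P29 and P49. All mice were C57BL/6, and no genotype, treatment or sex is labelled. Mature adipocytes were freed from dorsal skin with collagenase IV and dispase II and collected as the floating fraction after centrifugation, so other skin cells that cling to fat cells can remain. Each library is a bulk RNA-seq profile in FPKM, fragments per kilobase of gene length, scaled to the counted reads of the library. Of 35275 genes in the deposited table, 12259 reached at least 1 FPKM in at least 3 of the 15 libraries and were tested. The labels do not say whether libraries of one age came from separate mice, so the p-values measure only the spread between these libraries.

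Dermal adipocytes form the fat layer under the dermis, around the lower hair follicles. In mouse back skin this layer thickens when follicles enter the growth phase, anagen, and thins when they rest, and the weeks after weaning contain the first synchronised growth phase after hair morphogenesis. Dermal adipocytes store triglyceride, make lipid from glucose, and secrete factors that act on follicles, such as BMP and PDGF ligands, and antimicrobial peptides such as cathelicidin (Camp).

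The 6 libraries carried the transcripts that define fat cells. Adipoq, which encodes adiponectin, was at 1724, 2349 and 2047 FPKM at P21 and at 2673, 2500 and 2733 FPKM at P35, and Fabp4, the adipocyte fatty acid carrier, was at 8634 FPKM or more in all 6. The libraries held between 23214103 and 32219574 counted reads, so that 3 reads on a 1 kb gene corresponded to 0.0931 to 0.129 FPKM. Pearson's r over log2 values was 0.984 to 0.987 within P21, 0.984 to 0.990 within P35 and 0.926 to 0.963 between the ages. P25 replicate 2 stood apart from its own age (r = 0.925 to 0.928) and was closest to P21 replicate 1. In the main fit it enters the P35 against P21 test through the filter and the estimate of the spread, not through the means. Markers of other cells also moved with age: a stromal index, the mean log2(FPKM + 1) of endothelial, nerve and lymphocyte markers, was 3.76, 3.06 and 3.32 in the P21 libraries and 2.18, 2.63 and 2.39 in the P35 libraries. The groups do not overlap in this index, so its part in any difference between P21 and P35 cannot be told apart from age in these 6 libraries. A fit with the index as a covariate over all 15 libraries is given beside many of the list counts it changes. The slope of that fit comes from differences between libraries of the same age. P25 replicate 2, with an index of 3.44 against 2.21 and 2.08 in the other P25 libraries, therefore weighs on every change in that fit. The covariate fit was not repeated without this library.

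A change is reported as the difference in log2(FPKM + 1), P35 minus P21, with its standard error, and a gene is said to rise or fall when its limma p-value, Benjamini-Hochberg adjusted over all 12259 genes, was below 0.05. The added 1 shrinks the change of genes at low FPKM. By this rule 3279 genes differed, 26.7% of those tested. Of these, 1279 (10.4%) rose and 2000 (16.3%) fell. Changes of at least 2-fold on this scale were found for 206 genes that rose (1.68%) and 461 that fell (3.76%). Before adjustment, 5111 genes were at p below 0.05 (41.7%). The split between directions depended on scaling: 39.0% of called genes rose on FPKM as deposited, against 54.2% after quantile normalization and 53.2% after median-ratio scaling, while the median over all genes moved from -0.06 to 0.04 and 0.00. The count of called genes was 1643 without P21 replicate 1, 2003 without P21 replicate 3, 1851 without P35 replicate 1, 2086 without P35 replicate 3 and 5173 without P25 replicate 2.

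**Figure D1:**
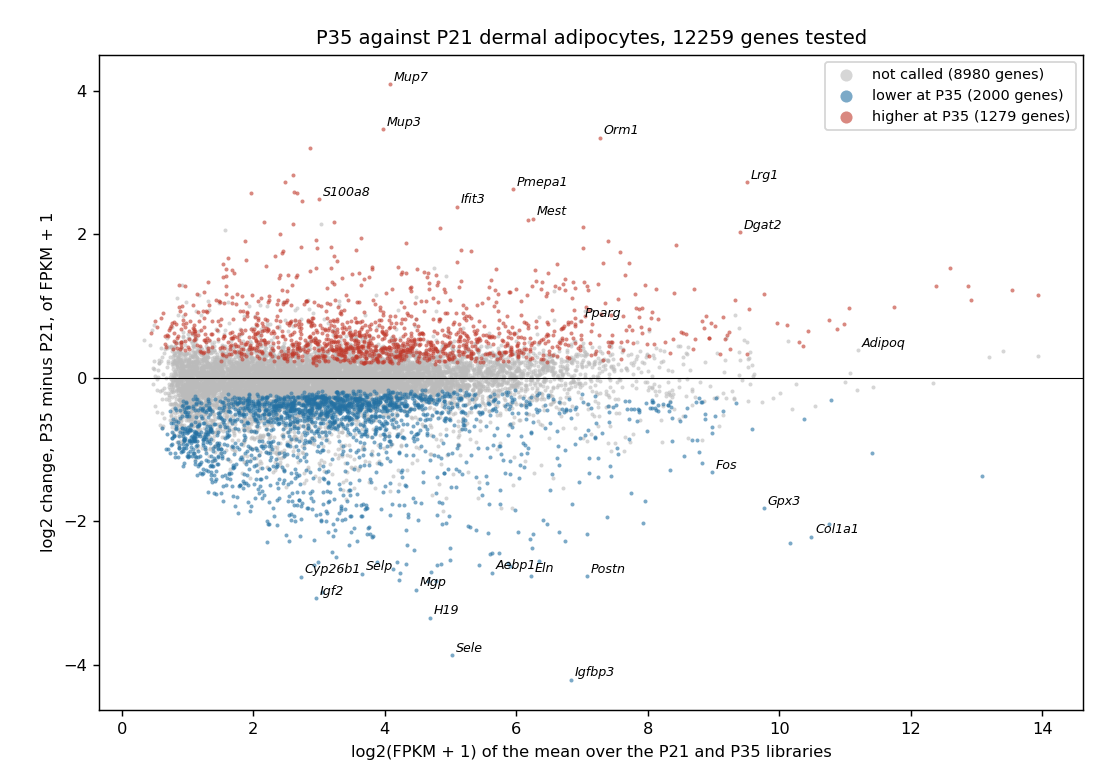
Each point is 1 of the 12259 genes tested, with the level averaged over the 6 libraries as log2(FPKM + 1) on the x axis and the log2 change from P21 to P35 on the y axis. Red points are the 1279 genes that rose and blue points the 2000 that fell. The labelled extremes are Mup7 at 4.09 and Igfbp3 at -4.22.

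The largest rises were led by genes for secreted plasma-type proteins. Among the 15 largest, ordered by log2 change among genes of at least 5 FPKM, 6 were major urinary protein (Mup) genes, which encode lipocalins that carry small lipophilic molecules and are best known from liver.
Mup7 was at 0.461, 1.62 and 0.448 FPKM at P21 and at 47.5, 25 and 20.6 FPKM at P35, a log2 change of 4.09 ± 0.32 (SE, adjusted p = 2.35e-05). Mup genes are near-identical copies, so the share of reads that belongs to each is uncertain, and the same holds for the acute phase genes Orm1 and Orm2. Lrg1, which encodes leucine-rich alpha-2-glycoprotein, a secreted protein of the acute phase, lies at chr17:56119680-56121946 (GRCm38, minus strand). It rose from 174, 262 and 149 FPKM to 1213, 1334 and 1223 FPKM (2.72 ± 0.23, adjusted p = 4.06e-05). Every P35 library lay far above the highest P21 library in Lrg1, and the means differed 6.45-fold. Pmepa1, a membrane protein induced by TGF-beta that restrains that pathway (chr2:173224458-173276533, minus strand), rose from 14.6, 17.7 and 15.9 FPKM to 129, 85.5 and 102 FPKM (2.63 ± 0.17, adjusted p = 1.55e-05). Crtac1, a secreted matrix protein of cartilage, was at 0.663 to 0.885 FPKM at P21 and 6.26 to 12.5 FPKM at P35 (2.57 ± 0.20, adjusted p = 2.21e-05).

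The largest falls were in growth-axis, matrix and vessel-wall genes. Igfbp3, the main binding protein of circulating insulin-like growth factors (chr11:7206086-7213923, minus strand), was at 291, 146 and 209 FPKM at P21 and at 9.70, 11.9 and 9.14 FPKM at P35. Its mean was 21-fold lower at P35, and the log2 change was -4.22 ± 0.40 (adjusted p = 6.34e-05). Sele, the adhesion receptor E-selectin of activated endothelium, fell from 101, 28.9 and 51.1 FPKM to 1.98, 3.05 and 3.22 FPKM (-3.87 ± 0.66, adjusted p = 0.00228). Selp, the P-selectin gene, was 38.1, 10.6 and 15.3 FPKM at P21 and 1.47, 2.34 and 2.03 FPKM at P35 (-2.74 ± 0.66, adjusted p = 0.0115), with adjusted p = 0.0535 without P21 replicate 1. Akr1c18, which inactivates progesterone, fell by 2.99 ± 0.51 (adjusted p = 0.00238), and Cyp26b1, which degrades retinoic acid, fell by 2.77 ± 0.40 (adjusted p = 0.00098). P21 replicate 1 was the highest library for each of these 5 genes. In bulk RNA, fewer cells of a type and less RNA per cell cannot be told apart, and this holds for every result below on matrix, vessel or blood genes.

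Fat-cell identity genes rose in part. Of 24 genes of adipocyte identity and the lipid droplet, 23 were tested, 7 rose and none fell, with a median log2 change of 0.37 against -0.06 over all genes tested. Tusc5, also called Trarg1, a regulator of insulin-stimulated glucose transporter traffic, rose most: 53.6, 49.3 and 67.3 FPKM at P21 and 225, 167 and 211 FPKM at P35 (1.81 ± 0.17, adjusted p = 5.49e-05). Plin1, the coat protein of the adipocyte lipid droplet, was at 683, 751 and 802 FPKM and then at 1273, 1177 and 1331 FPKM (0.76 ± 0.20, adjusted p = 0.0169, or 0.0655 without P21 replicate 1). Adipoq (0.38 ± 0.20, adjusted p = 0.174) and Lep, the gene of leptin (0.66 ± 0.24, adjusted p = 0.0583), did not pass the test, although all 3 P35 libraries were above all 3 P21 libraries for both. The count of risers in this list was 3 without P21 replicate 1, 4 without P21 replicate 3 and 14, with 2 falls, without P25 replicate 2. With the stromal index as a covariate, 2 rose and 4 fell, and Adipoq took a value of -0.10.

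Of 19 tested transcription factors of the fat-cell program, 3 rose and 4 fell, shares not far from the 10.4% and 16.3% of all genes tested. Pparg, the nuclear receptor required for adipocyte formation, rose from 92.6, 81.9 and 99.8 FPKM to 180, 139 and 161 FPKM (0.80 ± 0.16, adjusted p = 0.00514). Cebpa, its partner in mature fat cells, rose from 306 to 361 FPKM across the P21 libraries to 536 to 633 FPKM at P35 (0.78 ± 0.17, adjusted p = 0.00806). Srebf1, the regulator of lipogenic enzymes, rose 3.10-fold in mean FPKM, from 82.5, 68.2 and 81.9 to 301, 186 and 233 (1.60 ± 0.18, adjusted p = 0.0002). In the other direction, Zbtb16, a zinc-finger factor induced by glucocorticoids, fell from 60.0, 84.9 and 53.6 FPKM to 24.1, 22.6 and 27.1 FPKM (-1.37 ± 0.23, adjusted p = 0.00207). Gata2, which holds preadipocytes back from differentiation, fell by 1.98 ± 0.51 (adjusted p = 0.0159, or 0.0627 without P21 replicate 3). Cebpd, an early inducer of differentiation, fell by 0.85 ± 0.22 (adjusted p = 0.0144, or 0.0567 without P21 replicate 3). Without P21 replicate 3, 3 of these factors rose and 2 fell, and without P25 replicate 2, 5 rose and 7 fell.

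**Figure D2:**
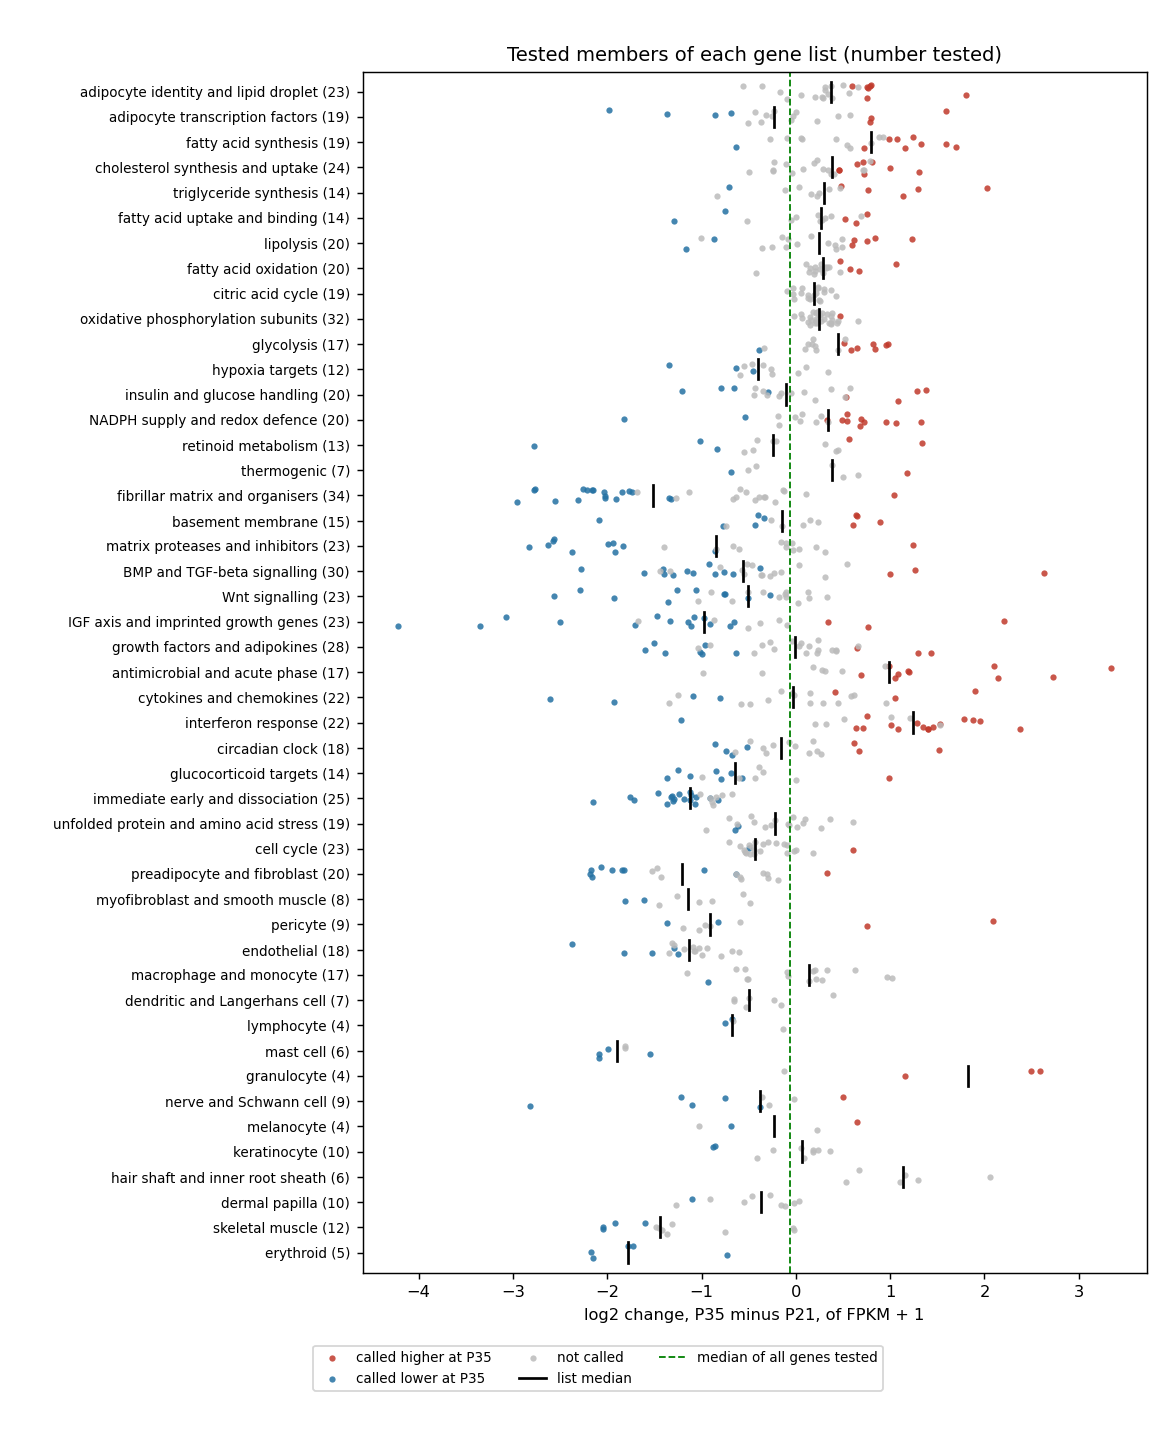
Each row is a gene list with at least 4 tested members, named with the number tested. Points are members by their log2 change from P21 to P35, red where called higher, blue where called lower and grey where not called, the black bar is the list median and the dashed line the median of all genes, -0.06. The fibrillar matrix list sits lowest among the lists of more than 20 genes (median -1.51) and the interferon list highest (1.24).

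Part of the route that makes fat from glucose rose. Of 19 tested genes of fatty acid synthesis, 8 rose and 1 fell, with a median of 0.80. Elovl6, which elongates palmitate, was at 4.46, 3.65 and 2.27 FPKM and then at 15.8, 11.7 and 12.3 FPKM (1.70 ± 0.35, adjusted p = 0.00628). Me1, malic enzyme, which supplies NADPH for lipid synthesis, rose from 94.8, 85.1 and 45.6 FPKM to 201, 158 and 190 FPKM (1.33 ± 0.32, adjusted p = 0.0124). The core enzymes Fasn (0.88 ± 0.36, adjusted p = 0.086) and Acly (0.93 ± 0.40, adjusted p = 0.104) did not pass. Their P21 replicate 3 stood below the other P21 libraries: Fasn was 612, 534 and 258 FPKM at P21 and 946, 671 and 832 FPKM at P35. Scd1, the stearoyl-CoA desaturase, reached 5135, 3819 and 4598 FPKM from 1949, 3316 and 1775 FPKM (0.99 ± 0.25, adjusted p = 0.0139, or 0.0592 without P21 replicate 1). Fads1, a desaturase of polyunsaturated fatty acids, went the other way, from 20.2, 18.5 and 14.3 FPKM to 10.5, 11.1 and 11.1 FPKM (-0.64 ± 0.14, adjusted p = 0.00804). In this list 5 rose without P21 replicate 3 or P35 replicate 1, 12 without P25 replicate 2, and 3 rose and 2 fell with the stromal index as a covariate.

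Part of the cholesterol pathway rose. Of 24 tested, 8 rose and none fell, with a median of 0.39. Insig1, which holds back the SREBP factors when sterols are plentiful and is itself an SREBP target, rose from 73.2, 50.3 and 55.5 FPKM to 127, 175 and 144 FPKM (1.31 ± 0.18, adjusted p = 0.000587). Hmgcs1, which makes HMG-CoA, rose from 35.7, 27.6 and 34.0 FPKM to 59.9, 86.3 and 54.0 FPKM (1.00 ± 0.18, adjusted p = 0.00267). The count of risers was 2 without P35 replicate 1 or P35 replicate 2, 3 without P21 replicate 1 or P21 replicate 3, 5 without P21 replicate 2, 2 with the stromal index as a covariate and 12, with 2 falls, without P25 replicate 2.

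Of 14 tested genes of triglyceride assembly, 5 rose and 1 fell. Dgat2, which adds the third acyl chain, rose 4.07-fold in mean FPKM, from 306, 262 and 236 to 1139, 983 and 1148 (2.02 ± 0.18, adjusted p = 5.49e-05). Agpat2, the acyltransferase whose loss causes lipodystrophy, rose from 177, 132 and 123 FPKM to 325, 383 and 343 FPKM (1.29 ± 0.20, adjusted p = 0.00132). Mogat1, an alternative route to diacylglycerol, rose from 1.13 to 1.27 FPKM across the P21 libraries to 3.11 to 4.63 FPKM at P35 (1.13 ± 0.14, adjusted p = 0.000331). Risers numbered 3 without P21 replicate 1, P21 replicate 3 or P35 replicate 1, 8 without P25 replicate 2 and 3 with the covariate, with 3 falls in that fit.

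Of 14 tested genes of fatty acid uptake, 3 rose and 2 fell, beside 10.4% and 16.3% of all genes tested. Vldlr, a lipoprotein receptor, rose by 0.52 ± 0.11 (adjusted p = 0.00684). Lpl, the lipoprotein lipase, was 1360, 1830 and 1368 FPKM at P21 and 2478, 2390 and 2734 FPKM at P35 (0.75 ± 0.19, adjusted p = 0.0135, or 0.0574 without P21 replicate 1). Angptl4, which blocks that lipase and is induced in fasting, fell from 294, 381 and 282 FPKM to 174, 220 and 173 FPKM (-0.75 ± 0.15, adjusted p = 0.00444). For lipolysis, 5 of 20 rose and 2 fell. Npr3, the receptor that clears the lipolytic natriuretic peptides, rose from 27.7, 43.6 and 40.9 FPKM to 81.4, 84.5 and 98.3 FPKM (1.24 ± 0.21, adjusted p = 0.00228). The triglyceride lipase Pnpla2 was 1096, 1419 and 1234 FPKM against 1420, 1011 and 1114 FPKM, with overlapping groups (adjusted p = 0.79). Leaving out 1 P21 or P35 library gave 1 to 4 risers and 1 fall for uptake, with 1 riser without P21 replicate 3. It gave 1 to 6 risers and 0 to 2 falls for lipolysis, with 1 riser without P21 replicate 1. Without P25 replicate 2, 8 genes rose in each list, with 3 falls for uptake and 5 for lipolysis. With the stromal index as a covariate, 2 lipolysis genes rose and 5 fell, with a median of -0.11, and 2 uptake genes rose and 2 fell.

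Few fuel-burning genes passed the test. Of 20 tested genes of fatty acid oxidation, 4 rose and none fell: Cpt2, which releases acyl chains inside mitochondria, rose from 30.7, 31.1 and 34.9 FPKM to 78.1, 56.5 and 71.4 FPKM (1.06 ± 0.18, adjusted p = 0.00228), and Cpt1a, the entry enzyme, rose by 0.67 ± 0.14 (adjusted p = 0.00736). None of 19 citric acid cycle genes and 1 of 32 subunits of oxidative phosphorylation, Cox5b, passed the test. For 18 of these 32 subunits all P35 libraries lay above all P21 libraries, against 20.1% of all genes tested, with a median change of 0.25. Oxidation genes gave 2 risers without P21 replicate 1, P35 replicate 1 or P35 replicate 3. Without P25 replicate 2 the counts of risers were 12 for oxidation, 7 for the citric acid cycle and 15 for oxidative phosphorylation. With the stromal index as a covariate, the medians of the 3 lists were -0.14, -0.22 and -0.11. Thermogenic genes gave 1 rise and 1 fall among 7 tested, and Ucp1, the uncoupling protein of brown fat, did not reach the level needed for testing.

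Genes of glucose use and of reducing power had more calls. Of 17 glycolysis genes, 7 rose and 1 fell, with a median of 0.45. Tpi1 rose from 156, 174 and 128 FPKM to 282, 296 and 318 FPKM (0.98 ± 0.16, adjusted p = 0.00213), and Ldha, lactate dehydrogenase, from 496, 571 and 458 FPKM to 1053, 956 and 937 FPKM (0.95 ± 0.17, adjusted p = 0.00302). Of 12 hypoxia targets, 3 fell and none rose, beside 16.3% and 10.4% of all genes tested. Among them were Adm, the vasodilator adrenomedullin (-1.35 ± 0.32, adjusted p = 0.0117), and Epas1, which encodes HIF-2alpha (-0.46 ± 0.10, adjusted p = 0.00939). Without P25 replicate 2, 6 hypoxia targets fell and 1 rose. The limma adjusted p of Vegfa, which also fell, was 0.0728 without P35 replicate 2. That of Adm was 0.154 with the stromal index as a covariate. Of 20 genes of NADPH supply and redox defence, 10 rose and 2 fell. Pgd, of the pentose phosphate pathway, rose from 46.9, 46.3 and 34.6 FPKM to 85.8, 98.8 and 84.0 FPKM (1.06 ± 0.20, adjusted p = 0.00385). Gpx3, the secreted glutathione peroxidase, did the opposite and fell 3.55-fold in mean FPKM, from 1155, 1395 and 1529 to 432, 346 and 371 (log2 change -1.82 ± 0.19, adjusted p = 0.000113). The NADPH list gave 6 risers without P21 replicate 1, 4 without P21 replicate 3, 5 without P35 replicate 1, 6 without P35 replicate 3, and 2 risers and 4 falls with the stromal index as a covariate.

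Of 20 insulin-pathway genes, 4 rose and 4 fell, beside 10.4% and 16.3% of all genes tested. Gys2, a glycogen synthase, was listed at 0.205, 0.186 and 0.0290 FPKM at P21 and at 1.88, 1.76 and 1.65 FPKM at P35 (1.28 ± 0.16, adjusted p = 0.000299). The adaptor genes went in opposite directions: Grb14 rose from 13.2, 28.5 and 18.3 FPKM to 34.3, 45.4 and 45.8 FPKM (1.08 ± 0.23, adjusted p = 0.00679), and Grb10, which is imprinted, fell from 43.7, 38.0 and 37.6 FPKM to 25.4, 23.3 and 25.7 FPKM (-0.66 ± 0.08, adjusted p = 0.000293). Slc2a4, the insulin-responsive glucose transporter, did not pass (0.20 ± 0.21, adjusted p = 0.495). Of 13 retinoid genes, 2 rose and 3 fell, beside the same 10.4% and 16.3% of all genes tested. Aldh1a7 was highest at 1.34 ± 0.29 (adjusted p = 0.00779) and Cyp26b1 lowest. Leaving out 1 P21 or P35 library gave 2 or 3 risers and 1 to 3 falls for the insulin list, with 2 and 1 without P21 replicate 1. With the stromal index as a covariate, 1 insulin gene rose and 4 fell. The retinoid list gave 1 to 3 risers and 1 to 4 falls, with 1 and 1 without P21 replicate 1 or P35 replicate 1.

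Of 34 genes of the fibrillar matrix, all tested, 18 fell and 1 rose, and the median change was -1.51. For 24 of the 34, all P35 libraries lay below all P21 libraries, against 30.7% of all genes tested. Postn, which encodes periostin, was at 293, 169 and 243 FPKM at P21 and at 22.3, 45.0 and 34.8 FPKM at P35 (-2.77 ± 0.64, adjusted p = 0.0097). Eln, the elastin gene, fell from 205, 80.7 and 103 FPKM to 11.4, 24.4 and 16.8 FPKM (-2.76 ± 0.61, adjusted p = 0.00804), and Mgp, matrix Gla protein, from 68.5, 22.4 and 24.4 FPKM to 1.94, 6.72 and 2.85 FPKM (-2.96 ± 0.57, adjusted p = 0.00438). Col1a1, the main collagen of dermis, was at 2998, 1899 and 2115 FPKM and then at 289, 795 and 517 FPKM (-2.22 ± 0.70, adjusted p = 0.0363, or 0.127 without P35 replicate 1). Col5a3, a collagen made by adipocytes, was the exception, with 107, 138 and 76.4 FPKM at P21 and 226, 190 and 234 FPKM at P35 (1.05 ± 0.19, adjusted p = 0.00272). The number of falls was 7 without P21 replicate 1, P21 replicate 3 or P35 replicate 1, 9 without P35 replicate 3, and 26 without P25 replicate 2. With the stromal index as a covariate, 5 fell, 3 rose and the median was -0.10.

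Markers of fibroblasts and their precursors moved with these matrix genes. Of 20 tested, 9 fell and 1 rose, with a median of -1.20, and the summed level was 1344, 1068 and 1106 FPKM in the P21 libraries and 850, 1139 and 850 FPKM in the P35 libraries. Pdgfra, the receptor that marks fibroblasts and adipocyte precursors, was at 24.2, 12.1 and 15.6 FPKM and then at 1.86, 4.49 and 2.94 FPKM (-2.16 ± 0.55, adjusted p = 0.0146, or 0.0623 without P21 replicate 1). Without P21 replicate 1 no gene of this list passed in either direction, without P35 replicate 1 only 1 fell, without P21 replicate 3 or P35 replicate 3 3 fell, without P25 replicate 2 14 fell, and with the covariate 1 fell. The part of these cells in the matrix result was not tested.

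Basement membrane genes went both ways. Of 15 tested, 4 rose and 5 fell, beside 10.4% and 16.3% of all genes tested. Col4a1, a chain of the collagen IV that wraps each fat cell, rose from 446, 543 and 418 FPKM to 761, 730 and 693 FPKM (0.64 ± 0.11, adjusted p = 0.00217), and Col15a1 rose from 112, 138 and 80.5 FPKM to 190, 199 and 211 FPKM (0.89 ± 0.15, adjusted p = 0.00217). Hspg2, which encodes perlecan, fell from 129, 128 and 112 FPKM to 102, 85 and 84.9 FPKM (-0.44 ± 0.09, adjusted p = 0.00679). Lama2, a laminin chain of muscle and nerve, fell by 2.09 ± 0.56 (adjusted p = 0.0188, or 0.077 without P21 replicate 1). The falls numbered 1 without P21 replicate 1, 2 without P35 replicate 1 and 3 without P35 replicate 2, and with the stromal index as a covariate 5 rose and 1 fell.

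Among 23 tested matrix-cutting enzymes and their inhibitors, 10 fell and 1 rose, with a median of -0.85. Adamts4, an aggrecanase, fell from 72.6, 24.0 and 34.6 FPKM to 4.64, 6.92 and 3.08 FPKM (-2.83 ± 0.63, adjusted p = 0.00833). Ctsk, the collagen-degrading cathepsin K, fell by 2.62 ± 0.59 (adjusted p = 0.00868) and Mmp14, a membrane-bound collagenase, by 2.58 ± 0.56 (adjusted p = 0.00736). Adamts5, the close relative of Adamts4, rose instead, from 16, 14.1 and 12.1 FPKM to 29, 42.8 and 32.7 FPKM (1.24 ± 0.15, adjusted p = 0.000256). The falls numbered 5 without P21 replicate 1, 6 without P35 replicate 1, and 4, with 4 rises, with the stromal index as a covariate.

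Among growth signals, the insulin-like growth factor axis and imprinted growth genes were counted together. Of 23 tested genes, 14 fell and 3 rose, and the median was -0.98. H19, an imprinted long noncoding RNA (chr7:142575529-142578143, minus strand), was at 61.2, 29 and 46.8 FPKM at P21 and at 2.26, 5.81 and 2.82 FPKM at P35 (-3.35 ± 0.49, adjusted p = 0.00104). Igf2, its imprinted neighbour and the fetal growth factor, was at 17.1, 8.73 and 13.1 FPKM and then at 0.392, 0.880 and 0.572 FPKM (-3.08 ± 0.36, adjusted p = 0.000256). The ages do not overlap for either gene, and P21 replicate 2 was the lowest P21 library for both genes as it was for Igfbp3. Mest, an imprinted gene whose level follows fat-cell expansion in other depots, went the other way, from 20.4, 43.8 and 19.2 FPKM to 113, 123 and 135 FPKM (2.21 ± 0.35, adjusted p = 0.00167). Igf1, the postnatal growth factor, rose from 46.4, 47.5 and 60.4 FPKM to 100, 76.7 and 87.1 FPKM (0.76 ± 0.17, adjusted p = 0.00759). The falls in this list stayed between 12 and 14 when 1 P21 or P35 library was left out, and numbered 18 without P25 replicate 2 and 9 with the stromal index as a covariate, where 1 gene rose.

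Of 30 tested BMP and TGF-beta genes, 12 fell and 3 rose. Among ligands, Tgfb2 fell from 4.24, 1.76 and 4.80 FPKM to 0.474, 0.781 and 0.703 FPKM (-1.41 ± 0.31, adjusted p = 0.00833). Bmp4 was at 9.44, 5.61 and 5.58 FPKM and then at 2.05, 2.69 and 1.68 FPKM (-1.30 ± 0.32, adjusted p = 0.0131, or 0.0599 without P21 replicate 1). Bmp2, the BMP ligand of dermal fat best known for holding follicle stem cells at rest, was at 7.60, 6.71 and 9.48 FPKM and then at 2.82, 4.01 and 4.38 FPKM (-0.92 ± 0.31, adjusted p = 0.0468). That call on Bmp2 was lost in 12 of the 15 fits that left out 1 library, with the highest adjusted p, 0.149, without P35 replicate 1. Ltbp1, which tethers latent TGF-beta to matrix, fell by 1.61 ± 0.29 (adjusted p = 0.00278). The ligand subunit Inhbb, which forms activin B, rose from 11.1, 8.90 and 14.6 FPKM to 29.2, 28.4 and 28.1 FPKM (1.26 ± 0.17, adjusted p = 0.000561). The inhibitors Smad6 (1.00 ± 0.18, adjusted p = 0.00267) and Pmepa1 rose as well. The falls numbered 5 without P21 replicate 1, 7 without P35 replicate 1 or P35 replicate 3, 19 without P25 replicate 2, and 2, with 5 rises, with the stromal index as a covariate.

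In the Wnt list 10 of 23 tested genes fell and none rose. The largest falls were in genes of the secreted Dkk and Sfrp families. Dkk3 fell from 10.9, 3.51 and 5.91 FPKM to 0.218, 0.822 and 0.425 FPKM (-2.29 ± 0.42, adjusted p = 0.00314), and Sfrp4 fell by 2.56 ± 0.72 (adjusted p = 0.0225, or 0.0872 without P21 replicate 1). Sfrp2 was at 24.2, 14.1 and 17.5 FPKM and then at 1.94, 8.25 and 3.66 FPKM (-1.93 ± 0.65, adjusted p = 0.0462, or 0.157 without P35 replicate 1). With Dkk2, 4 of the 10 belong to these 2 families, whose members do not all act on the pathway in the same way. The others are the ligand Wnt11, the receptors Fzd1, Lrp5 and Lrp6, the receptor Lgr5 and its ligand Rspo1. Axin2, a general target of the pathway, did not pass. Falls numbered 5 without P21 replicate 1, 6 without P35 replicate 1 and 3 with the stromal index as a covariate.

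Other secreted factors and hormones gave 3 rises and 7 falls among 28 tested, beside 10.4% and 16.3% of all genes tested. Agt, which encodes angiotensinogen, fell from 269, 389 and 305 FPKM to 110, 104 and 98.8 FPKM (-1.60 ± 0.26, adjusted p = 0.00164). Kitl, the ligand that supports mast cells and melanocytes, fell from 25.1, 25.7 and 17.6 FPKM to 6.09, 7.76 and 8.14 FPKM (-1.50 ± 0.25, adjusted p = 0.00197). Nrg4, a hormone of brown fat, rose from 15.2, 12.9 and 16 FPKM to 48.9, 25.6 and 41.8 FPKM (1.30 ± 0.26, adjusted p = 0.00509), and Apln, the vascular peptide apelin, rose by 1.44 ± 0.29 (adjusted p = 0.00586). Pdgfa, by which adipocyte lineage cells are known to act on follicle stem cells, was at 4.57, 3.41 and 5.26 FPKM against 4.64, 4.65 and 5.02 FPKM (0.11 ± 0.14, adjusted p = 0.601), and Hgf did not pass either (adjusted p = 0.235). Falls numbered 3 without P21 replicate 1, P35 replicate 1 or P35 replicate 3 and 4 without P35 replicate 2, and without P25 replicate 2 there were 7 rises.

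**Figure D3:**
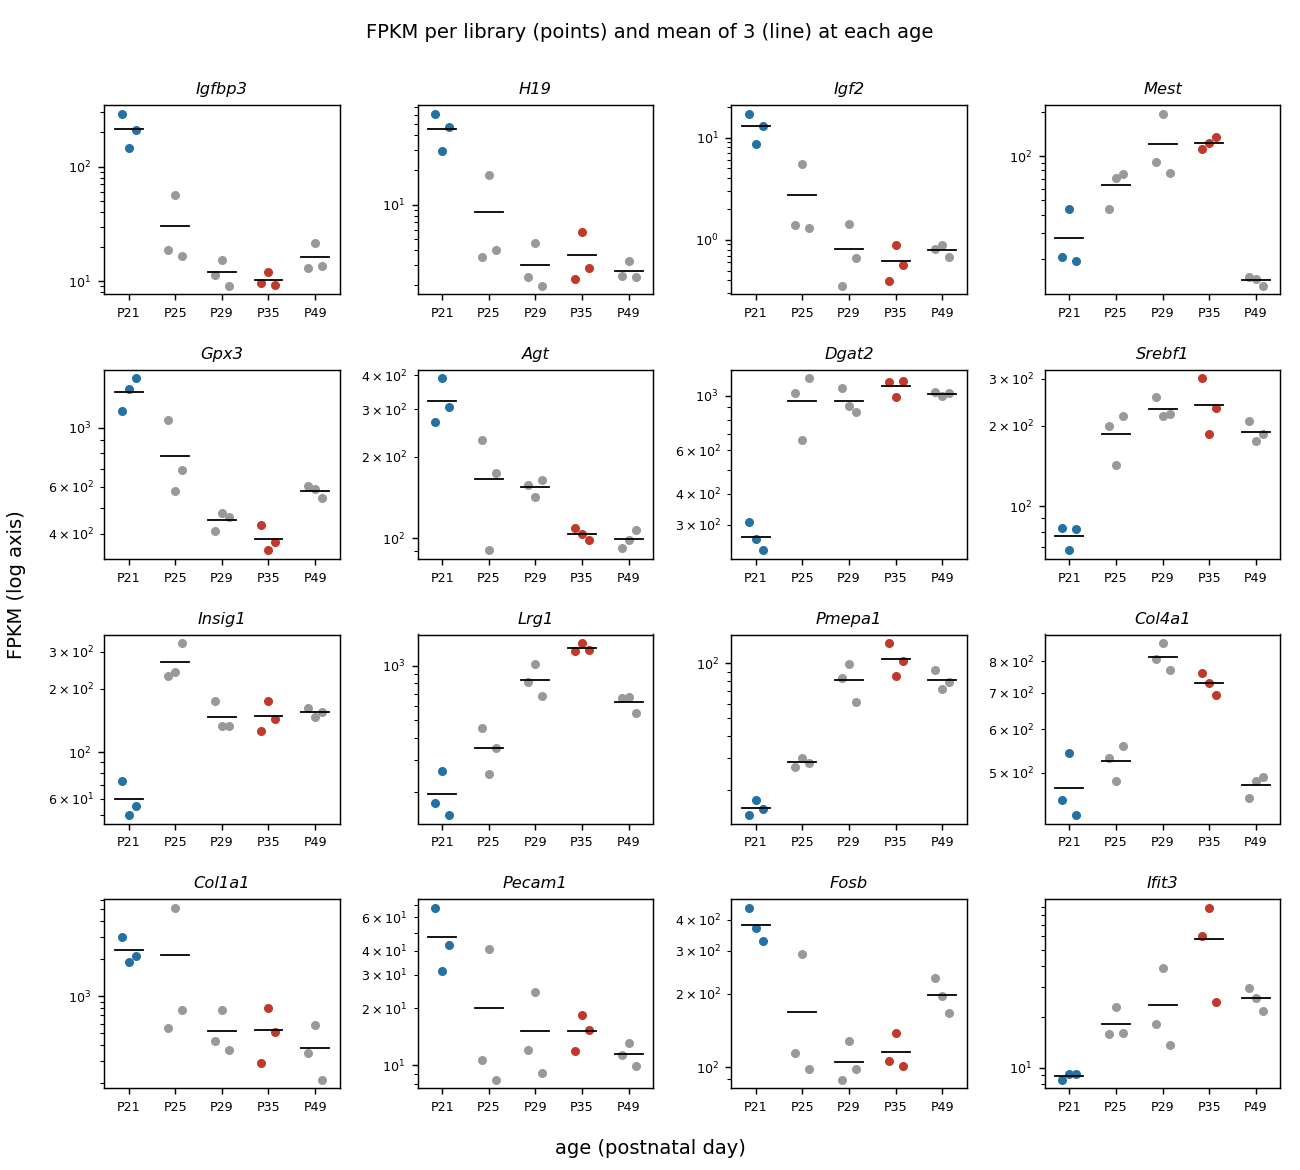
Each panel shows 1 gene, with FPKM on a log axis and age on the x axis. Points are single libraries, blue for P21, red for P35 and grey for the other ages, and the line is the mean of 3. Igfbp3 and Dgat2 at P25 already lay on the P35 side of every P21 library, Mest was high at P29 and P35 and low again at P49, and P25 replicate 2, the middle grey point at P25, lies above the other P25 points for Col1a1, Pecam1 and Fosb.

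Of 17 tested antimicrobial and acute phase genes, 10 rose and none fell, with a median of 0.99. Orm1, which encodes an alpha-1-acid glycoprotein, was at 37.9, 45.3 and 10.3 FPKM at P21 and at 257, 311 and 263 FPKM at P35 (3.34 ± 0.41, adjusted p = 0.000315). Camp, the cathelicidin by which dermal fat is known to answer skin bacteria, was at 1.98, 2.46 and 1.67 FPKM and then at 4.44, 6.91 and 4.70 FPKM (1.05 ± 0.27, adjusted p = 0.0144, or 0.0541 without P35 replicate 2). Lcn2, an iron-scavenging lipocalin, was at 11.2 to 12.4 FPKM at P21 and at 23.8, 37.3 and 15.6 FPKM at P35 (0.99 ± 0.32, adjusted p = 0.0405, or 0.143 without P35 replicate 2). The rises numbered 7 to 10 when 1 P21 or P35 library was left out, and the covariate fit gave 8 rises and 1 fall. Of 22 tested cytokines and chemokines, 3 rose and 4 fell, shares not far from the 10.4% and 16.3% of all genes tested. The inflammatory cytokines went apart: Tnf was at 16.1, 17.1 and 18.2 FPKM and then at 29.7, 45.9 and 35.8 FPKM (1.05 ± 0.31, adjusted p = 0.0258, or 0.0866 without P35 replicate 2), and Il6 at 118, 38.8 and 64.7 FPKM and then at 7.29, 15.4 and 9.11 FPKM (-2.61 ± 0.74, adjusted p = 0.0238, or 0.0954 without P21 replicate 1). That list gave 0 to 2 rises and 1 to 4 falls when 1 P21 or P35 library was left out, with no rise without P21 replicate 2, and 10 rises and no fall with the stromal index as a covariate.

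The interferon response showed the highest median of the lists with more than 20 genes. All 22 genes were tested, 15 rose and 1 fell, and the median was 1.24. Type I interferons act through a transcription factor complex that binds promoters at short GAAA repeats. Ifit3, an antiviral protein of this response (chr19:34583531-34588731, plus strand), was at 8.49, 9.16 and 9.21 FPKM at P21 and at 60.1, 88.7 and 24.3 FPKM at P35 (2.38 ± 0.41, adjusted p = 0.00261). Ifit1, its neighbour, was at 6.23, 6.36 and 10.3 FPKM and then at 31.6, 36.2 and 23.8 FPKM (1.88 ± 0.52, adjusted p = 0.0214, or 0.0738 without P21 replicate 1). Ifit2 rose from 3.77, 3.42 and 5.07 FPKM to 16.4, 25.6 and 14.9 FPKM (1.95 ± 0.47, adjusted p = 0.0123). The P21 libraries lay close together, whereas the P35 libraries differed: the summed level of the list was 585, 489 and 559 FPKM at P21 and 671, 1436 and 587 FPKM at P35, with P35 replicate 2 highest. Irf1, a factor induced by interferon-gamma, was the 1 member that fell, from 149, 137 and 131 FPKM to 49, 77.6 and 54.6 FPKM (-1.21 ± 0.26, adjusted p = 0.00736). The rises numbered 4 without P35 replicate 2, 5 without P21 replicate 1, 6 without P35 replicate 1, 8 without P21 replicate 2, 9 without P21 replicate 3, and 20, with no fall, with the stromal index as a covariate.

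The promoters of Ifit3 and Ifit1 are shown because their repeats are spelled out in the letters that the interferon-activated complex is known to bind. The windows run from 250 bases before to 50 bases after the RefSeq start (GRCm38.p6), at chr19:34583279-34583578 for Ifit3 and chr19:34640639-34640938 for Ifit1, both on the plus strand. Capitals mark matches to GAAANNGAA on either strand, which here all read on the opposite strand, and matches may overlap.
Ifit3: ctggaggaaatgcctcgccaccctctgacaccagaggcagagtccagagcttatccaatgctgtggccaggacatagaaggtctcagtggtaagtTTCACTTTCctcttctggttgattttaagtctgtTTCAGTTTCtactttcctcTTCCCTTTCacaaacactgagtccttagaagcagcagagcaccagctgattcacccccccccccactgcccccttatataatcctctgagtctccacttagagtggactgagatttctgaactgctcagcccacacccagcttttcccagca
Ifit1: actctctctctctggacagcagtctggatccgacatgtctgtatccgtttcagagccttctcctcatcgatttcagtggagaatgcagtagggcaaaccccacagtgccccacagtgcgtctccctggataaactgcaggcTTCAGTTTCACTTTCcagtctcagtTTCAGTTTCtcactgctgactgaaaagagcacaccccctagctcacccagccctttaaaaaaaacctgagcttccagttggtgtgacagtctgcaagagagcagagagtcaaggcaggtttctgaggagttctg
In Ifit3 the 3 matches begin 155, 121 and 102 bases before the start, and in Ifit1 they begin 109, 103 and 84 bases before it. GAAANNGAA was found in 12 of the 18 tested interferon genes with a RefSeq promoter entry (66.7%), against 9.76% of 27025 genes with an entry. Among the interferon genes that rose it was found in 8 of 12, the same 66.7%. The motif therefore did not set the genes that rose apart from the rest of the list. Irf1, which fell, had no match in either of its entries, and a single gene does not link the motif to direction. Other motifs were searched in other lists and are not reported here. A match describes the letters only and is not evidence that a protein binds there.

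**Figure D4:**
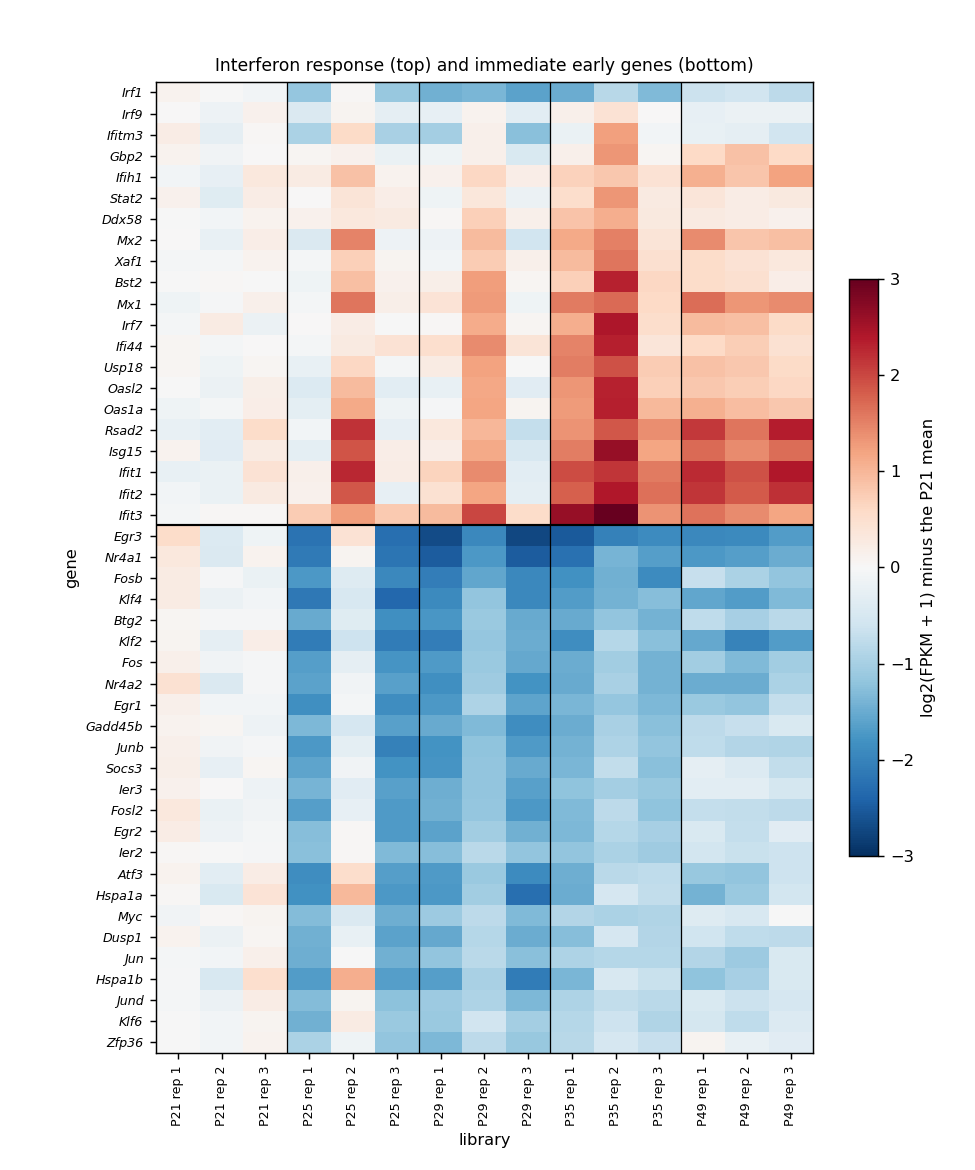
Rows are 21 of the interferon genes (top) and 25 immediate early genes (bottom), columns the 15 libraries by age, and colour is log2(FPKM + 1) minus the P21 mean of the gene, from blue (lower) to red (higher) and capped at 3. P35 replicate 2 is the reddest column in the interferon block, and P25 replicate 2 stays near the P21 level in the immediate early block.

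Immediate early genes were lower at P35. They are transcribed within minutes of a stimulus and are also known to rise while tissue is digested with enzymes, a step shared by every library here. Of 25 tested, 18 fell and none rose, the median was -1.12, and in all 25 every P35 library lay below every P21 library, against 30.7% of all genes tested. Fosb, a partner in the AP-1 factor, was at 449, 370 and 327 FPKM and then at 106, 138 and 102 FPKM (-1.72 ± 0.32, adjusted p = 0.00391), and Fos at 788, 659 and 701 FPKM and then at 254, 348 and 264 FPKM (-1.32 ± 0.31, adjusted p = 0.0114). Nr4a1, an orphan nuclear receptor, fell by 1.76 ± 0.49 (adjusted p = 0.022, or 0.0841 without P35 replicate 1). The summed level of the list was 7420, 6316 and 7332 FPKM at P21 and 2813, 3837 and 3316 FPKM at P35. The falls numbered 6 without P21 replicate 1 or P35 replicate 1, 9 without P21 replicate 3 or P35 replicate 3, 23 without P25 replicate 2, and 3, with a median of -0.26, with the stromal index as a covariate. The part of digestion in this result was not tested.

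Glucocorticoid targets fell in 7 of 14 and rose in 1. Errfi1, a brake on EGF receptor signalling, fell from 172, 216 and 174 FPKM to 91.3, 81.9 and 81.7 FPKM (-1.13 ± 0.28, adjusted p = 0.0144), beside Zbtb16 above. Cdkn1a, the cell-cycle inhibitor p21, fell by 1.25 ± 0.37 (adjusted p = 0.0264, or 0.0954 without P35 replicate 1). The falls numbered 4 without P21 replicate 1, P21 replicate 2 or P35 replicate 3, and 3 with the stromal index as a covariate. The time of day of collection is not labelled, and of 18 tested clock genes 3 rose and 4 fell, shares not far from the 10.4% and 16.3% of all genes tested. Dbp, an output gene of the clock, was at 24.6, 25.1 and 24.9 FPKM at P21 and at 77.0, 48.7 and 103 FPKM at P35 (1.51 ± 0.21, adjusted p = 0.000735). Rora, an activator within the clock, fell by 0.68 ± 0.13 (adjusted p = 0.00407), and Arntl, which encodes BMAL1, did not pass (-0.65 ± 0.24, adjusted p = 0.0652). The part of collection time in these values was not tested. Leaving out 1 P21 or P35 library gave 1 to 3 clock genes rising and 2 to 5 falling, with 1 and 2 without P21 replicate 1, and without P25 replicate 2 7 fell.

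Stress and proliferation genes gave few calls. Of 19 genes of the unfolded protein response and amino acid stress, 2 fell and none rose. Of 23 cell cycle genes 1 rose and 1 fell, with a median of -0.44. Over all genes tested, 10.4% rose and 16.3% fell. Mki67, the proliferation marker, was at 1.94, 1.87 and 1.55 FPKM at P21 and at 0.453, 1.51 and 1.16 FPKM at P35 (-0.48 ± 0.39, adjusted p = 0.372). Without P25 replicate 2, 2 stress genes rose and 8 fell, and 1 cell cycle gene rose and 6 fell. No cell cycle gene passed without P21 replicate 1, P21 replicate 3 or P35 replicate 3. With the stromal index as a covariate, 3 cell cycle genes rose and none fell, with a median of 0.42.

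Markers of other cell types differed between the ages and are given as measured values. Over all genes tested, 10.4% rose and 16.3% fell, which is the share to set beside each count in this paragraph. Of 18 endothelial markers, 5 fell and none rose. For 17 of them every P35 library lay below every P21 library, against 30.7% of all genes tested. Their sum was 241 to 482 FPKM at P21 and 97.4 to 159 FPKM at P35. Pecam1, the endothelial adhesion molecule CD31, was at 67.5, 31.4 and 42.8 FPKM and then at 12, 18.4 and 15.4 FPKM (-1.52 ± 0.49, adjusted p = 0.04, or 0.146 without P21 replicate 1). None of the endothelial markers passed without P21 replicate 1, 1 or 2 did without P21 replicate 3 or any 1 P35 library, and 16 did without P25 replicate 2. All 5 tested erythroid genes fell, and their sum went from 207 to 338 FPKM at P21 to 55.6 to 60.6 FPKM at P35. Hbb-bs, an adult beta-globin, was at 158, 97.7 and 118 FPKM and then at 27.8, 26.5 and 24.6 FPKM (-2.18 ± 0.45, adjusted p = 0.0061). Of 6 tested mast cell markers, 4 fell, with sums of 316 to 533 FPKM at P21 and 52.3 to 218 FPKM at P35, and 1 fell without P21 replicate 3 or P35 replicate 1, or with the stromal index as a covariate. Skeletal muscle markers were uneven within P21: Myh4, a fast myosin, was at 18, 2.18 and 1.17 FPKM there and at 0.208, 0.320 and 0.170 FPKM at P35 (-2.05 ± 0.65, adjusted p = 0.0371, or 0.104 without P21 replicate 1), and the muscle list gave 4 falls among 12 tested. It gave none without P21 replicate 1, P35 replicate 1 or P35 replicate 3, 2 without P35 replicate 2 and 8 without P21 replicate 3.

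The remaining marker lists were mixed, beside 10.4% of all genes tested that rose and 16.3% that fell. Macrophage and monocyte genes summed to 1272 to 2186 FPKM at P21 and 1074 to 2150 FPKM at P35, with 1 fall among 17 tested, that of the engulfment receptor Mertk (-0.93 ± 0.20, adjusted p = 0.00775). With the stromal index as a covariate, 9 of the 17 rose and 1 fell, and the median went from 0.14 to 1.23. Of 9 granulocyte genes, 4 were tested and 3 of these rose. The whole list summed to at most 6.31 FPKM at P21, at least 13.99 FPKM at P35 and 8.21 to 10.4 FPKM at P49. Members low at the other ages could reach the 1 FPKM filter through the P35 libraries alone. The filter therefore favours rises, and the count of 3 in 4 is no support for one. S100a8, a subunit of the neutrophil protein calprotectin, was at 1.47, 1.45 and 0.688 FPKM and then at 5.94 to 22.7 FPKM (2.49 ± 0.38, adjusted p = 0.00123). Ly6g and Mpo, also in this list, were below 0.1 FPKM in all 6 libraries, which does not decide whether neutrophils were present. Hair shaft and inner root sheath genes did not pass. Their list summed to 0.453 to 1.07 FPKM at P21, 3.95 to 30.3 FPKM at P35 and 0.199 to 0.559 FPKM at P49. Members could therefore reach the 1 FPKM filter almost only in P25, P29 and P35 libraries. All 6 tested were higher in every P35 library than in every P21 library, which this filter favours, so it is no support for a rise. Krt71, a keratin of the inner root sheath, was at 0.0353 to 0.0622 FPKM at P21 and at 1.73, 2.72 and 7.29 FPKM at P35 (2.06 ± 0.86, adjusted p = 0.0889). Of the pericyte markers, Cspg4, which encodes NG2, rose from 9.90, 12.2 and 7.77 FPKM to 51.4, 39.1 and 45.2 FPKM (2.09 ± 0.17, adjusted p = 2.35e-05), while Des, the filament protein desmin, fell by 1.37 ± 0.45 (adjusted p = 0.0431, or 0.173 without P21 replicate 1). Of 9 pericyte markers 2 rose and 2 fell, and with the stromal index as a covariate 4 rose and none fell. Nerve and Schwann cell markers gave 5 falls and 1 rise among 9 tested, and 1 fall without P21 replicate 1 or P35 replicate 3. There were 2 falls among 4 lymphocyte markers, with Cd3d and Cd3e below 0.1 FPKM in all 6 libraries, 2 among 10 keratinocyte markers, 2 among 8 smooth muscle markers, 1 among 10 dermal papilla markers and none among 7 dendritic cell markers. Melanocyte (4 tested) and sebaceous (2 tested) markers gave 1 rise and 1 fall each. The part of other cells in the changes listed above was not tested.

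**Figure D5:**
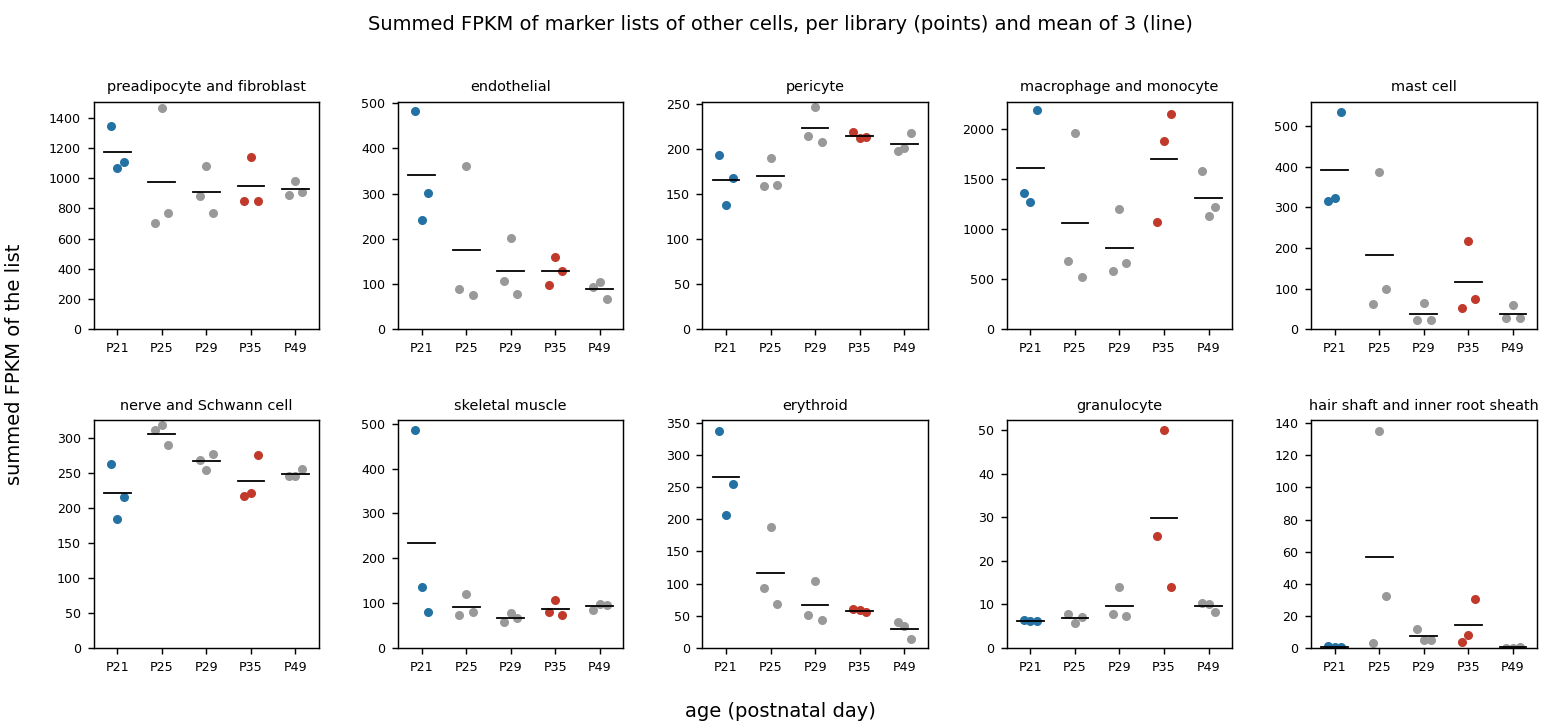
Each panel shows the summed FPKM of 1 marker list in each library, with age on the x axis, points as libraries (blue P21, red P35, grey other ages) and the line as the mean of 3. Endothelial, mast cell and erythroid sums are lower at P35 than at P21 in every library, macrophage sums overlap, and P25 replicate 2 stands high for fibroblast, endothelial and hair genes.

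The neighbouring ages were compared in the same fit. Between P29 and P35 no gene passed limma's test, with 812 genes (6.62%) at an unadjusted p below 0.05 and none called by voom on recovered reads. Between P35 and P49, 69 genes passed (0.563%), of which 30 rose (0.245%) and 39 fell (0.318%), with 1500 (12.2%) at an unadjusted p below 0.05. The P35 libraries enter both of these comparisons and the one with P21. Mest averaged 121 FPKM at P29, 124 FPKM at P35 and 14.2 FPKM at P49, and fell by 3.03 ± 0.35 from P35 to P49 (adjusted p = 0.00338). The collagen genes named above as rising from P21 were lower at P49 than at P35: Col5a3 averaged 217 FPKM at P35 and 90.6 FPKM at P49 (-1.25 ± 0.19, adjusted p = 0.0112), Col15a1 200 and 97.4 FPKM (-1.03 ± 0.15, adjusted p = 0.0104), and Col4a1 728 and 474 FPKM (-0.62 ± 0.11, adjusted p = 0.0237). Cpt1a averaged 26.6 and 14.2 FPKM (-0.86 ± 0.14, adjusted p = 0.0204), and S100a8 12.9 and 2.23 FPKM (-1.95 ± 0.38, adjusted p = 0.0437). Fads1, which had fallen, averaged 10.9 FPKM at P35 and 20.0 FPKM at P49 (0.82 ± 0.14, adjusted p = 0.0236). Among the genes that fell most from P21, Igfbp3 averaged 12 FPKM at P29 and 16.1 FPKM at P49, and H19 3.0 and 2.66 FPKM. Neither passed the test against P35, and the other large falls are not given at these ages. The number of genes called between P35 and P49 ranged from 13, without P49 replicate 1 or P49 replicate 3, to 342 without P25 replicate 2, and was 22 without P35 replicate 3, 26 without P35 replicate 2, 31 without P49 replicate 2 and 39 without P35 replicate 1.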

How the data were processed

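Bulk RNA-seq of purified mature dermal adipocytes was measured in 15 libraries, 3 at each of 5 ages, and the labels give each library's age. The authors deposited FPKM per gene. Per the submitters' processing notes, the tools named are CASAVA, FastQC, STAR 2.5 and HTSeq 0.6.1, and the build is mm10 (GRCm38). The annotation release and the strandedness of counting are not given in the sources used here, so reads of overlapping genes cannot be assigned with certainty. FPKM times gene length gave whole multiples of 1 read for 100% of genes within 0.05 read, which gave the depth per library.

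Genes with at least 1 FPKM in at least 3 libraries were tested on log2(FPKM + 1) with limma 3.58.1 (R 4.3.3, statmod 1.5.0), with 1 mean per age over all 15 libraries, a trended robust variance, and Benjamini-Hochberg adjustment over 12259 genes at 0.05. On simulated data for P35 against P21 with 12259 genes, 75% of 100 genes changed 2-fold and 97% of 100 changed 4-fold were recovered, with 10 false calls among 12059 unchanged genes. The simulation drew noise independently for each gene, so it lacks variation shared by many genes, such as that of the stromal index. Its count of false calls therefore does not carry over to these libraries. Standard errors come from the fit with n = 3 libraries per age. Named genes are the 15 largest rises and falls among called genes of at least 5 FPKM with no overlap between ages, up to 3 per direction in each list, and anchor genes chosen for the tissue. The 48 lists hold 853 genes, of which 850 were in the table and 736 were tested. The comparison, the lists and the anchors were chosen with earlier results of these data known. Promoter windows are from RefSeq (GRCm38.p6) and were matched by symbol for 546 of the 736 tested list genes. Alternatives covered scaling, filter, pseudocount, voom on recovered reads, library weights, a replicate block, the stromal index as a covariate and leaving out each library. Figures were drawn with matplotlib 3.10.9. A few genes counted in the lists are not reported by name here.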

Additional observations from a re-analysis of the deposited data

How the results depend on the processing

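Of 3279 genes called between P21 and P35, leaving out 1 library of any age gave 1643 to 5173, with 695 to 2019 rising and 948 to 3154 falling. Leaving out a P21 or P35 library leaves 2 at that age. Library weights gave 5278 (2084 up, 3194 down), and at least 2-fold on the log2 scale left 667 (206 up, 461 down). Median-ratio scaling kept 2824 of the 3279 genes, voom on recovered reads 3178, and the stromal index as a covariate 1279.

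Replicate numbers did not pair the samples: deviations of same-numbered P21 and P35 libraries correlated at -0.26, -0.37 and 0.19. The replicate block called 3273 genes, 3043 of them shared with the fit without it.

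For P35 against P29, 0 genes became 2 without a filter and 24 with the stromal index. For P49 against P35, 69 genes became 269 from the 2 ages alone, 1119 with library weights 749 with the stromal index, 21 at 2-fold or more, and 13 to 342 when 1 library was left out. The cause was not tested.

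Of 178 named genes that were called, 91 kept their call with the stromal index as a covariate, 86 lost it and 1 changed sign. Those that lost it include Fos (limma adjusted p = 0.102), Adm (0.154), Errfi1 (0.186), Me1 (0.124), Cebpa (0.0851), Igf1 (0.0826) and Tgfb2 (0.0948). Among all named genes, the sign changed with the stromal index for Myl9 (0.0023), Adipoq (-0.10), Slc2a4 (-0.37), Emr1 (0.64), Ptprc (0.74), Acta2 (1.17) and Mki67 (0.58). When 1 library was left out it also changed for Pnpla2 (-0.23 to 0.018), Pdgfa (-0.034 to 0.22) and Ptprc (-0.33 to 0.11). None of these was called except Myl9. Depth limits genes near 0.1 FPKM, where 3 reads on 1 kb lie.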

Other observations

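The genes in this section lie outside the naming rule and were chosen after their values were seen, so they support no pattern. Apoc1, an apolipoprotein, was at 135, 163 and 147 FPKM at P21 and at 619, 510 and 491 FPKM at P35 (1.85 ± 0.20, adjusted p = 0.000145). Hsd11b1, which regenerates active glucocorticoid inside fat cells, was at 25.8, 33.8 and 17.7 FPKM and then at 121, 120 and 112 FPKM (2.20 ± 0.17, adjusted p = 2.21e-05), and averaged 64.4 FPKM at P49. Hpx, the heme scavenger hemopexin, was at 0.897, 0.488 and 0.470 FPKM at P21, at 5.57, 8.21 and 5.33 FPKM at P35 (2.18 ± 0.19, adjusted p = 5.01e-05), and averaged 1.04 FPKM at P49. Pon1, the antioxidant esterase paraoxonase, showed no call between P21 and P35 (-0.48 ± 0.32, adjusted p = 0.275). It averaged 77.6 FPKM at P49, and its levels at P21 and P35 are not given here, so no change to P49 is described.

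Ifnb1, the gene of interferon-beta, was detected at 1.77, 3.29 and 3.34 FPKM at P21 and at 8.39, 13.6 and 7.37 FPKM at P35 (1.49 ± 0.48, adjusted p = 0.0395).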
